A study of Mus musculus with 12 samples.

Results

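The transcripts of 10 transcription factor genes that define B cell identity, Pax5, Ebf1, Foxo1, Bach2, Spib, Pou2f2, Ikzf3, Bcl6, Id3 and Bcl11a, were followed in mouse follicular (FO) B cells under 4 conditions. The genes were chosen by name from the 22561 genes of the count table, and all 10 passed the filter on low counts that left 9431 genes for testing. These genes and the gene lists used below were chosen with earlier results of these data known. FO B cells, the recirculating B cells of the follicles, were sorted from the spleens of 10-week-old C57BL6 mice by surface markers that included B220hi, AA4.1-, CD23+ and CD21mid. One group of 3 samples was left unstimulated, and 3 groups of 3 samples were stimulated for 12 h with 1 of 3 stimuli, namely the type I interferon IFNα, the synthetic TLR9 ligand CpG, or CpG + IFNα together. The study asked what IFNα adds to CpG on the way to plasma cells (PCs). The labels name no genetic change in any group. The sources used here do not state whether the unstimulated cells were also kept in culture for 12 h, so time in culture and the stimulus cannot be told apart in comparisons with that group. Nothing in the labels says that the samples came from separate animals, and the p-values therefore measure the spread between these samples, which may be technical.

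A B cell is held in its state by a network of transcription factors. PAX5 and EBF1 switch on B lineage genes and keep those of other lineages off, FOXO1 supports quiescence, recirculation and receptor expression, and SPIB, OCT2 (encoded by Pou2f2), AIOLOS (Ikzf3) and BCL11A sustain the mature B cell. BACH2 and BCL6 are repressors that hold back the PC programme, and ID3 binds E proteins and keeps them from DNA. When a B cell becomes a PC, IRF4 and BLIMP1 (Prdm1) take over and B cell factors such as PAX5 are shut down.

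The RNA was counted by 3′ bulk RNA barcoding (BRB) sequencing, in which a primer on the poly(A) tail tags every molecule with a barcode of its sample and a random identifier (UMI). A transcript is thus counted per molecule at its end, and the counts do not grow with its length. Levels are given as CPM, a gene's counts scaled to a common total after TMM normalization, as mean ± SD of the 3 samples of a group where no single samples are listed, and log2 fold changes are given ± SE. Totals were 922450 to 1103064 UMI counts per sample without stimulus, 1067324 to 1689570 with IFNα, 1393018 to 1985810 with CpG and 1884673 to 2923865 with CpG + IFNα. No 2 samples of a group agreed within counting noise (chi-square of 1.90 to 6.31 for each degree of freedom). All 10 B cell markers checked, among them Cd79a and Ms4a1, had counts in every group, but their summed level was 33040 to 35630 CPM without stimulus, 26590 to 31090 with IFNα, 6786 to 7317 with CpG and 6074 to 6208 with CpG + IFNα. The T cell list summed to 303 to 334, 227 to 264, 7.13 to 18.4 and 10.0 to 17.5 CPM in the same order, mostly Cd2 and Lck, and Cd2 is also expressed by mouse B cells. Cd3g and Cd8a had no count, while Trac had 35 counts over the 12 samples. The myeloid list (31.8 to 72.7, 200.1 to 272, 11.7 to 14.5 and 118 to 139 CPM), the plasmacytoid dendritic cell list (75.5 to 92.7, 1495 to 1957, 104 to 155 and 1052 to 1224 CPM) and the marginal zone B cell list (622 to 741, 2283 to 2439, 129.5 to 141 and 323 to 365 CPM) moved with the stimuli too. With IFNα most of these sums came from Mpeg1, from Bst2 and Ly6c2, and from Plac8, but of the 7 marginal zone genes tested 4 were down-regulated more than 2-fold with IFNα at an adjusted p under 0.1 (57.1%, against 4.07% of all genes) and 1, Plac8, up-regulated (14.3%, against 4.56%). Of the myeloid genes, Lyz2 (3 to 9 counts) and Csf1r (1 to 7 counts) were present in every unstimulated sample and C1qa had up to 11 counts there, and all 3 were at 0 with IFNα and with CpG. Adgre1 instead had 1 to 3 counts in unstimulated samples and 8 to 17 with IFNα, and Cd68 had 5 to 9 counts with CpG. Of the plasmacytoid dendritic cell genes, Siglech and Klk1 had no count in any sample, and Ccr9 had 66 over the 12 samples. Cox6a2 had 0 or 1 count in unstimulated samples, 8 to 27 with CpG and 35 to 45 with CpG + IFNα. The erythroid list was at 74.1 to 360.4, 35.1 to 364, 32.5 to 78.0 and 29.8 to 83.5 CPM. The part of these lists in the results below was not tested.

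The 10 genes together were at 4233 ± 30.1 CPM (SD, n = 3) without stimulus, 3511 ± 84.7 with IFNα, 1703 ± 130 with CpG and 1501 ± 114 in the CpG + IFNα samples. The samples of the first 3 of these groups did not overlap, whereas the highest CpG + IFNα sample (1603 CPM) lay above the lowest CpG sample (1577 CPM). In bulk RNA, fewer cells that express a gene and less RNA per cell cannot be told apart. A CPM is also a share of the counts of its sample, and the total RNA per cell is not known here. A fall in CPM, here and below, therefore need not be a fall in molecules per cell. Pou2f2, Ebf1 and Pax5 were the most abundant in unstimulated cells, and Bcl6 and Id3 the least. Because Pax5 and Pou2f2 fell less than the others, Pax5 made up 16.1% ± 0.723 of the counts of the 10 genes without stimulus and 29.6% ± 3.51 with CpG + IFNα, and Pou2f2 20.2% ± 0.328 and 32.7% ± 2.78.

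**Figure D1:**
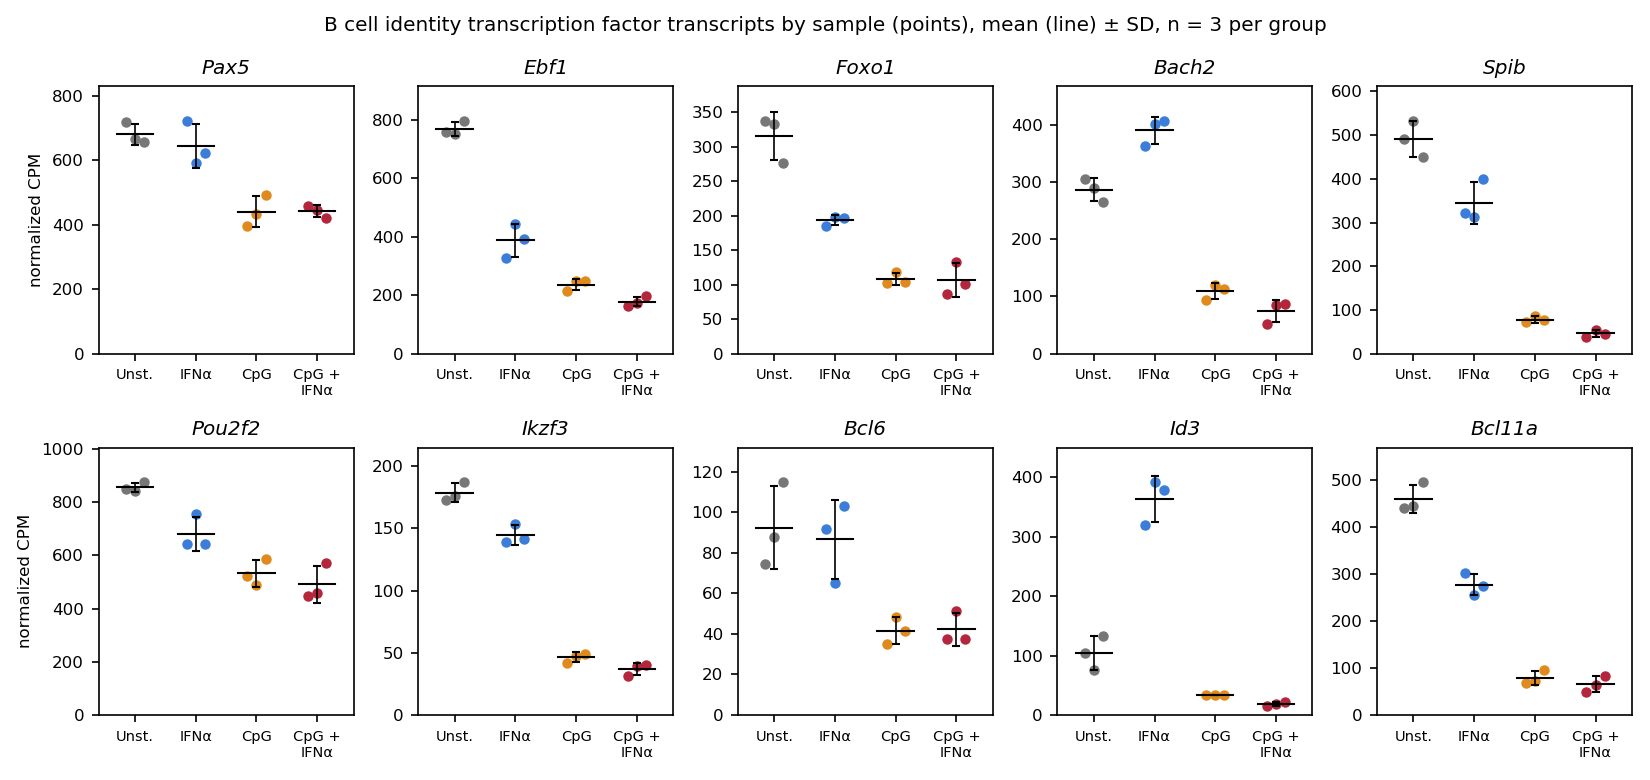
Normalized CPM (y axis, from 0, a scale of its own for each gene) of the 10 genes in the 3 samples of each group (points), with the mean (line) and SD (bar). The CpG and CpG + IFNα samples lie below the unstimulated samples for every gene, and Id3 and Bach2 are highest with IFNα alone.

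**Figure D2:**
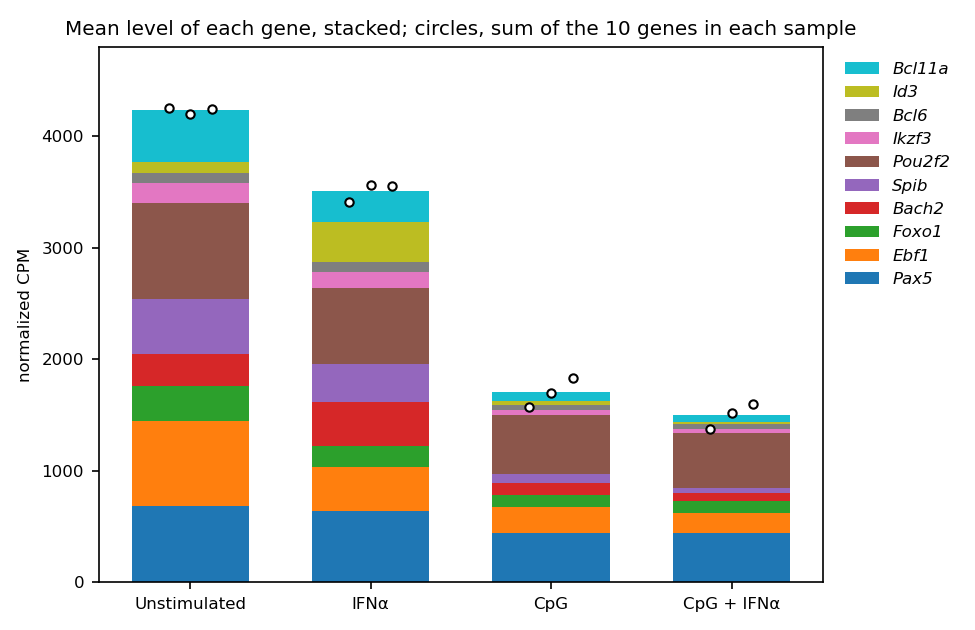
Mean normalized CPM of each gene stacked by group (colours), with the sum of the 10 genes in each sample as open circles. The sum falls from 4233 CPM without stimulus to 1501 CPM with CpG + IFNα, and the bands of Spib, Bcl11a and Id3 become thin in both groups with CpG.

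Differentially expressed genes (DEGs) changed more than 2-fold with a p under 0.1 in edgeR's quasi-likelihood test after Benjamini-Hochberg adjustment over all 9431 genes. With CpG, 8 of the 10 genes were down-regulated DEGs and none was up-regulated, where 25.5% of all genes tested were down-regulated and 20.1% up-regulated. Pax5 and Pou2f2, the other two, passed the adjusted p at less than 2-fold, so that 10 of 10 genes were lower at that threshold, against 38.4% of all genes. CpG + IFNα against unstimulated cells gave the same counts, 8 down-regulated DEGs (25.6% of all genes) and none up-regulated (20.3%), with 10 of 10 lower at any fold change (38.8%). Their median log2 fold change was -1.60 with CpG and -2.02 with CpG + IFNα, where the median of all genes tested was -0.03 and -0.01. These comparisons share the unstimulated samples. IFNα alone gave a single DEG among the 10, Id3, which was up-regulated (4.56% of all genes were up-regulated and 4.07% down-regulated). At any fold change, 2 of the 10 genes rose with IFNα (Id3 and Bach2, against 12.4% of all genes) and 6 fell (Ebf1, Foxo1, Spib, Pou2f2, Ikzf3 and Bcl11a, against 11.9%). CpG + IFNα against CpG contained no DEG among the 10 genes, where 2.95% of all genes were up-regulated and 2.01% down-regulated, with a median of -0.29 for the 10 and -0.04 for all genes. At any fold change 4 of the 10 were lower, Id3, Spib, Bach2 and Ebf1 (8.83% of all genes), and none was higher.

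**Figure D3:**
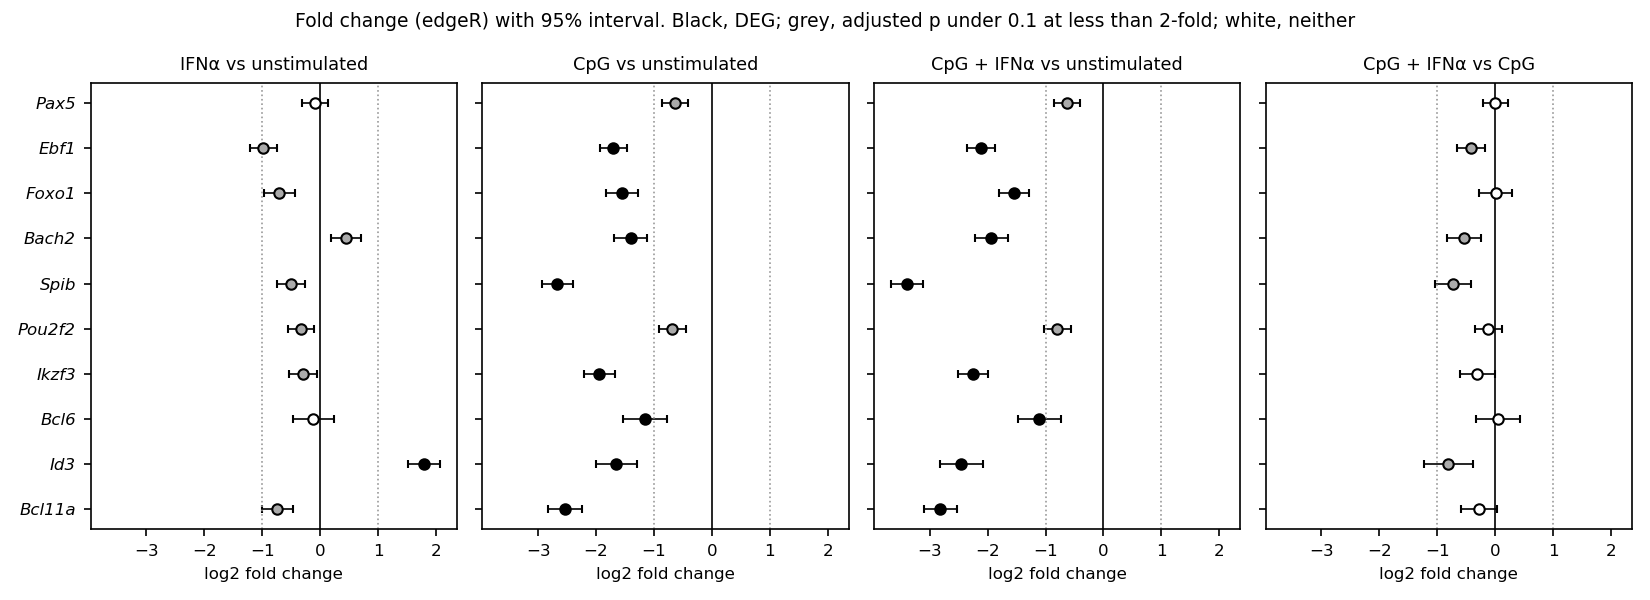
Log2 fold change (x axis) of the 10 genes in 4 comparisons, with its 95% interval. Black points are DEGs, grey points pass the adjusted p at less than 2-fold and white points pass neither. The points of both panels with CpG against unstimulated cells lie left of 0 for all 10 genes, while with IFNα alone Id3 and Bach2 lie right of 0.

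Pax5 (chr4:44524757-44710487, minus strand, GRCm38) encodes the factor that commits cells to the B lineage. It was at 718, 666 and 657 CPM in the unstimulated samples, 721, 591 and 620.4 with IFNα, 395, 433 and 490.2 with CpG and 458, 445 and 421 with CpG + IFNα. The samples fell into an upper pair of groups and a lower pair that did not overlap each other. CpG lowered Pax5 1.55-fold (log2 fold change -0.63 ± 0.11, adjusted p = 7.44e-06), and CpG + IFNα lowered it 1.54-fold (-0.62 ± 0.11, adjusted p = 6.84e-06). Neither IFNα alone (-0.08, 95% interval -0.31 to 0.14) nor its addition to CpG (0.00, interval -0.22 to 0.23) passed the test.

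Ebf1 (chr11:44617317-45008091, plus strand) encodes a pioneer factor that acts with PAX5. It was at 758, 749.8 and 796 CPM without stimulus, 328, 441 and 391 with IFNα, 213, 249 and 247 with CpG and 164, 173 and 195 with CpG + IFNα, so that the 4 groups formed a descending series in which no neighbours overlapped. IFNα lowered it 1.98-fold (log2 fold change -0.98 ± 0.11, adjusted p = 2.7e-08), just short of the threshold. Without the second IFNα sample, the deepest of that group, the value was -1.08 and Ebf1 became a DEG. With CpG it fell 3.25-fold (-1.70 ± 0.12, adjusted p = 1.72e-14) and with CpG + IFNα 4.33-fold (adjusted p = 6.87e-17). The log2 step from CpG to CpG + IFNα was -0.41 ± 0.12 (adjusted p = 0.0187). Pax5 had 0.887 ± 0.0606 counts per count of Ebf1 in unstimulated cells (SD, n = 3), 1.71 ± 0.444 with IFNα, 1.86 ± 0.123 with CpG and 2.51 ± 0.323 in the CpG + IFNα samples, so that the balance within a sample moved towards Pax5 in every stimulated group. The ratios given here and below were chosen after the values were seen and carry no test.

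Foxo1 (chr3:52268336-52353221, plus strand) encodes a forkhead factor that is active in resting cells and excluded from the nucleus by AKT signalling. It was at 338, 334 and 276 CPM in unstimulated samples, 186, 199 and 196 with IFNα, 102, 118 and 103 with CpG and 86.2, 134 and 100.2 with CpG + IFNα. IFNα alone lowered it 1.63-fold (log2 fold change -0.70 ± 0.13, adjusted p = 9.99e-05) and CpG 2.93-fold (-1.55 ± 0.13, adjusted p = 5.06e-12). With CpG present, IFNα made no difference that could be detected (0.01, interval -0.27 to 0.28), and the 2 groups overlapped. Its relative Foxo4 was lower with CpG (49.1 to 6.23 CPM, log2 fold change -2.95 ± 0.27) and with IFNα (24.3 CPM, adjusted p = 0.0011), and Foxo3 fell with CpG (-1.35 ± 0.17) and not detectably with IFNα (-0.05, interval -0.38 to 0.27). Of 18 tested genes linked to FOXO1 in quiescence and homing, 16 were down-regulated DEGs with CpG (88.9%, against 25.5% of all genes) and 1 was up-regulated (5.56%, against 20.1%), with a median log2 fold change of -3.61. Klf2, a factor that keeps lymphocytes quiescent, went from 1749.96 ± 517 to 33.4 ± 3.56 CPM (52.8-fold, adjusted p = 8.26e-23). Bcl2l11, which encodes the pro-apoptotic BIM, moved the other way (log2 fold change 1.33 ± 0.16, adjusted p = 1.21e-08). Between CpG and CpG + IFNα, 1 of the 18 was down-regulated (2.01% of all genes were), Klf2 (33.4 to 14.8 CPM, -1.14 ± 0.25, adjusted p = 0.00129), and the median over the 18 was -0.16.

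Spib (chr7:44525993-44532071, minus strand) encodes an ETS factor of B cells and plasmacytoid dendritic cells, and of the 10 genes it fell furthest against unstimulated cells. It was at 492, 533 and 451 CPM without stimulus, 323, 313 and 399.9 with IFNα, 71.2, 85.5 and 75.9 with CpG and 38.2, 53.8 and 45.7 with CpG + IFNα. No neighbouring groups overlapped. It fell 1.42-fold with IFNα (log2 fold change -0.51 ± 0.12, adjusted p = 0.00161), 6.35-fold with CpG (-2.67 ± 0.13, adjusted p = 5.61e-18) and 10.5-fold with CpG + IFNα (-3.40 ± 0.14, adjusted p = 1.53e-20). IFNα added to CpG lowered it a further 1.66-fold (-0.73 ± 0.15, adjusted p = 0.000702). Spi1, which encodes the closely related PU.1, was at 174 ± 15.3 CPM without stimulus and 175 ± 21.3 with IFNα, and fell with CpG to 59.3 ± 2.47 (-1.54 ± 0.13, adjusted p = 5.35e-12). With CpG + IFNα it was at 65.9 ± 7.6 CPM, not detectably different from CpG (0.14, interval -0.14 to 0.42). There were thus 2.83 ± 0.0176 Spib counts per Spi1 count in unstimulated samples, 1.98 ± 0.284 with IFNα, 1.31 ± 0.0917 with CpG and 0.705 ± 0.166 in the CpG + IFNα samples, and the order of the 2 transcripts was turned in the last group in all 3 samples.

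Pou2f2 (chr7:25087344-25179726, minus strand) encodes OCT2, which binds octamer sites of immunoglobulin genes. It was the most abundant of the 10 in unstimulated cells at 849, 842 and 874 CPM, and was at 642, 754 and 643 with IFNα, 522, 488 and 588 with CpG and 445, 459 and 571 with CpG + IFNα. The 2 groups with CpG overlapped and lay below the others. It fell 1.26-fold with IFNα (log2 fold change -0.33 ± 0.11, adjusted p = 0.0383), 1.6-fold with CpG (-0.68 ± 0.11, adjusted p = 3.48e-06) and 1.74-fold with both (-0.80 ± 0.11, adjusted p = 1.91e-07). Its coactivator OBF1, encoded by Pou2af1, fell further, from 418 ± 41.4 CPM to 122 ± 14.6 with CpG (3.4-fold, adjusted p = 1.28e-14) and to 59.8 ± 1.19 with CpG + IFNα (-1.03 ± 0.13 against CpG, adjusted p = 2.85e-07). The samples accordingly held 2.06 ± 0.223, 2.18 ± 0.388, 4.38 ± 0.213 and 8.21 ± 0.986 Pou2f2 counts per Pou2af1 count in the order unstimulated, IFNα, CpG, CpG + IFNα. Pou2f1, the widely expressed relative, fell with CpG from 76.6 to 27.2 CPM (-1.50 ± 0.18, adjusted p = 7.28e-09).

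**Figure D4:**
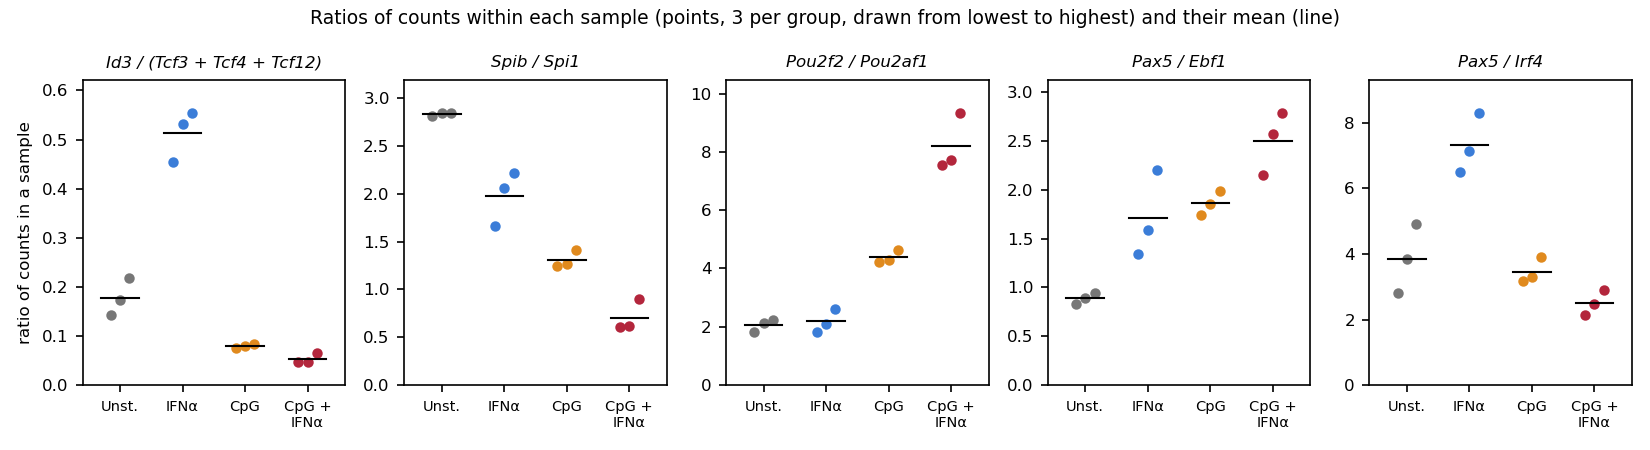
Ratios of the counts of 2 transcripts within a sample (y axes, from 0), with the 3 samples of each group as points from lowest to highest and the mean as a line. The Spib to Spi1 ratio falls and the Pou2f2 to Pou2af1 ratio rises from left to right, and Id3 per E protein count peaks with IFNα alone.

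Ikzf3 (chr11:98464902-98546031, minus strand) encodes AIOLOS, a zinc finger factor of mature lymphocytes. It was at 173, 176 and 187 CPM without stimulus, 139, 154 and 141 with IFNα, 41.7, 47.8 and 49.4 with CpG and 31.6, 39.3 and 40.6 with CpG + IFNα, with a gap between the first pair of groups and the last. It fell 1.23-fold with IFNα (log2 fold change -0.30 ± 0.12, adjusted p = 0.0732) and 3.85-fold with CpG (-1.95 ± 0.13, adjusted p = 1.25e-14), and the step from CpG to CpG + IFNα did not pass (-0.31, adjusted p = 0.194), although the samples of those groups did not overlap. Ikzf1, which encodes its partner IKAROS, fell with IFNα (-0.60 ± 0.11, adjusted p = 0.000112), with CpG (-1.42 ± 0.12, adjusted p = 1.29e-12) and again between CpG and CpG + IFNα (-0.99 ± 0.13, adjusted p = 3.04e-07). Ikzf4, which encodes EOS, had 0 or 1 count in every sample without CpG but 10 to 34 counts with CpG (adjusted p = 3.99e-07) and 12 to 30 with CpG + IFNα. Ikzf5 passed none of these 3 comparisons, with group means of 22.0 to 29.6 CPM.

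Bcl11a (chr11:24078056-24174123, plus strand) encodes a zinc finger repressor needed for B cell development. It was at 440.4, 445 and 494 CPM without stimulus, 301, 255 and 274 with IFNα, 68.8, 71.3 and 95.4 with CpG and 49.1, 63.8 and 82.7 with CpG + IFNα. After Spib it fell furthest with CpG, 5.81-fold (-2.54 ± 0.14, adjusted p = 1.37e-16). IFNα alone lowered it 1.67-fold (-0.74 ± 0.13, adjusted p = 5.14e-05), and the 2 groups with CpG overlapped (-0.28, interval -0.60 to 0.04).

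Bach2 (chr4:32238804-32586108, plus strand) encodes a repressor that delays PC differentiation, in part by repressing Prdm1. It was at 306, 289 and 265 CPM in unstimulated samples, rose to 362, 401 and 407 with IFNα and was at 93.3, 120.5 and 112 with CpG and 52.4, 84.2 and 85.8 with CpG + IFNα. No neighbouring groups overlapped, and the highest group was IFNα. The rise with IFNα was 1.36-fold (log2 fold change 0.45 ± 0.13, adjusted p = 0.0116). CpG lowered Bach2 2.64-fold (-1.40 ± 0.14, adjusted p = 1.29e-10), and IFNα added to CpG lowered it another 1.45-fold (-0.54 ± 0.15, adjusted p = 0.0121), opposite to its direction without CpG. The difference between these 2 log2 effects of IFNα was -0.98 ± 0.19 (adjusted p = 0.00083). It lay just under 2-fold in size, and passed 2-fold when the first unstimulated, the first IFNα, the first CpG, or the second or the third CpG + IFNα sample was left out (-1.04 to -1.10). Bach1, the widely expressed relative, was at 20.9 and 28.9 CPM without stimulus and with IFNα, which did not differ detectably (adjusted p = 0.205), and fell with CpG to 7.97 (-1.40 ± 0.32, adjusted p = 0.000254).

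Bcl6 (chr16:23965052-23988852, minus strand) encodes the repressor that drives the germinal centre programme. It was the least abundant of the 10 genes in unstimulated cells, at 74.6, 87.7 and 115 CPM, and was at 91.8, 65.1 and 103 with IFNα, 35.0, 48.5 and 41.4 with CpG and 37.6, 51.4 and 37.5 with CpG + IFNα. The 2 groups without CpG overlapped, as did the 2 with CpG, and only the pairs were apart. CpG lowered it 2.23-fold (-1.16 ± 0.19, adjusted p = 2.05e-06) and CpG + IFNα 2.16-fold (-1.11 ± 0.18, adjusted p = 1.95e-06). The highest unstimulated sample decided the DEG call, since without it the 2 values were -0.98 and -0.89, and without a filter on low counts the call with CpG + IFNα was also lost (-0.99). IFNα alone did not pass (-0.11, interval -0.47 to 0.24).

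Of 15 tested genes that BACH2 or BCL6 are known to repress or act on, 6 were up-regulated DEGs with CpG (40.0%, against 20.1% of all genes) and 4 down-regulated (26.7%, near the 25.5% of all genes), with a median log2 fold change of 0.34. In CpG + IFNα against CpG, 4 were up-regulated (26.7%, against 2.95% of all genes) and none down-regulated (2.01%), with a median of 0.38. Cdkn1a, which encodes the cell cycle inhibitor p21, went from 8.46 ± 5.71 CPM without stimulus to 102 ± 30.5 with CpG (adjusted p = 2.01e-12) and 256 ± 45.6 with CpG + IFNα (1.34 ± 0.16 against CpG, adjusted p = 6.34e-08). Ccl3, a chemokine gene, rose with CpG from 14.6 ± 11.6 to 294 ± 41.3 CPM (adjusted p = 6.81e-17). Gpr183 and S1pr1, which encode receptors that position and release lymphocytes, fell with CpG 41.1-fold (adjusted p = 2.16e-19) and 16.3-fold (adjusted p = 1.35e-14). Cd69, an early activation gene, rose 3.68-fold between CpG and CpG + IFNα (1.88 ± 0.13, adjusted p = 9.77e-14). Its levels there, 58.0 ± 6.25 and 213 ± 7.94 CPM, were both below the 482 ± 57.5 CPM of unstimulated samples. Prdm1 itself had 1 to 10 counts in every sample, too few for a comparison at this depth.

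Of the 13 genes tested of 20 listed for the PC programme, 1 was up-regulated (7.69%, against 20.1% of all genes) and 3 down-regulated (23.1%, near the 25.5% of all genes) with CpG, with a median of -0.57. In CpG + IFNα against CpG, 1 was up- and 1 down-regulated, where 2.95% and 2.01% of all genes were (median -0.22). Ssr4, which encodes a part of the secretory pathway, rose with CpG (1.19 ± 0.12, adjusted p = 1.01e-10), and Zbtb20 fell (-2.88 ± 0.19, adjusted p = 1.23e-14). Sdc1, which encodes CD138, had 12 to 27 counts in unstimulated samples and 2 to 4 with CpG (adjusted p = 2.26e-08). Between CpG and CpG + IFNα, Slamf7 rose (1.29 ± 0.13, adjusted p = 2.44e-09) and Mzb1 fell (-1.01 ± 0.11, adjusted p = 1.97e-08). Mzb1 was at 265 ± 48.3 CPM without stimulus, 498 ± 16.9 with CpG and 247 ± 3.48 in the CpG + IFNα samples. Irf4, which the study follows as the driver of PC differentiation, was at 188 ± 62.2 CPM without stimulus, 88.3 ± 6.48 with IFNα, 127 ± 3.88 with CpG and 179 ± 22.4 in the CpG + IFNα samples, higher in the last than with CpG (0.48 ± 0.14, adjusted p = 0.0238). The samples held 3.85 ± 1.05 Pax5 counts per Irf4 count without stimulus, 7.32 ± 0.918 with IFNα, 3.45 ± 0.390 with CpG and 2.50 ± 0.380 in the CpG + IFNα samples. At 12 h the Pax5 transcript was thus the more abundant of the 2 in every sample.

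Id3 (chr4:136143497-136145755, plus strand) had the widest range of the 10 genes on the log2 scale. It was at 105, 75.9 and 132 CPM without stimulus, 319.9, 392 and 379 with IFNα, 33.8, 33.5 and 33.4 with CpG and 15.3, 19.3 and 22.6 with CpG + IFNα. Every group was apart from every other. IFNα raised it 3.46-fold (1.79 ± 0.14, adjusted p = 2.32e-12), CpG lowered it 3.13-fold (-1.65 ± 0.17, adjusted p = 5.15e-10), and with CpG present IFNα lowered it a further 1.75-fold (-0.81 ± 0.20, adjusted p = 0.00639). The log2 effect of IFNα with CpG minus that without was -2.60 ± 0.25 (adjusted p = 3.97e-09). CpG + IFNα against IFNα alone gave the largest difference of any of the 10 genes in any comparison, 19.0-fold lower (-4.25 ± 0.16, adjusted p = 2.99e-21). Its relative Id2 was less abundant than Id3 in every group but CpG + IFNα, and both effects of IFNα on it were opposite in direction to those on Id3. Id2 was at 19.5 ± 13.7 CPM without stimulus and 4.54 ± 0.699 with IFNα (-2.03 ± 0.50, adjusted p = 0.00284), and at 14.1 ± 6.99 with CpG and 26.4 ± 10.8 in the CpG + IFNα samples (adjusted p = 0.0353), with a difference between the effects of 3.03 ± 0.59 (adjusted p = 0.000684), while CpG alone did not pass for Id2 (-0.46, interval -1.24 to 0.32). The E proteins that ID3 binds are encoded by Tcf3 (E2A), Tcf4 and Tcf12. Tcf3 fell with CpG (-0.33 ± 0.11, adjusted p = 0.0115) and between CpG and CpG + IFNα (-0.89 ± 0.11, adjusted p = 3.82e-07), Tcf4 rose with IFNα (0.65 ± 0.13, adjusted p = 0.000271) and fell with CpG (-0.83 ± 0.14, adjusted p = 2.39e-06), and Tcf12 passed none of these 3 comparisons. Id3 counts per count of the 3 E protein genes were 0.178 ± 0.0385 without stimulus, 0.513 ± 0.0531 with IFNα, 0.0793 ± 0.00437 with CpG and 0.0530 ± 0.0102 in the CpG + IFNα samples.

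Promoters of the genes were read from RefSeq (GRCm38.p6, 250 bases before to 50 bases after the start site) to show the sequence around the starts of the genes that responded to IFNα in different directions. Of the 10 genes, 9 had a promoter in the table, 11 promoters in all. Both strands were searched for the interferon-stimulated response element (ISRE; GAAA, any pair of bases, GAAA) and the gamma-activated site (GAS; TTCNNNGAA), which are not the same letters and did not overlap in these windows. ISRE letters were in 3.44% and GAS letters in 8.30% of all 32851 mouse promoters in the table. The promoters of Id3 and Bach2, which rose with IFNα, and of Ebf1, which fell most with IFNα, are shown 5′ to 3′ on the strand of the gene, with ISRE or GAS letters in capitals. Ebf1 had a second promoter in the table (chr11:44619978-44620277), which is not shown because its start site lies in an intron, and which held neither set of letters. All 3 windows lie inside the gene as annotated by GENCODE M21, with the start site in an exon. The Bach2 start site (32417435) is the start of an annotated transcript well inside the gene, which begins at 32238804. Which start these cells used was not tested.
Id3, chr4:136143572-136143871, plus strand: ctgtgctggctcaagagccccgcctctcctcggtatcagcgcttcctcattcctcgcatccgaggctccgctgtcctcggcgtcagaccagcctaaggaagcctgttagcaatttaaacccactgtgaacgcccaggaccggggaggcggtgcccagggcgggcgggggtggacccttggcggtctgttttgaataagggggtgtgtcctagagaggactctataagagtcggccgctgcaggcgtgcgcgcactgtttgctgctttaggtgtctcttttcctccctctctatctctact
Bach2, chr4:32417185-32417484, plus strand: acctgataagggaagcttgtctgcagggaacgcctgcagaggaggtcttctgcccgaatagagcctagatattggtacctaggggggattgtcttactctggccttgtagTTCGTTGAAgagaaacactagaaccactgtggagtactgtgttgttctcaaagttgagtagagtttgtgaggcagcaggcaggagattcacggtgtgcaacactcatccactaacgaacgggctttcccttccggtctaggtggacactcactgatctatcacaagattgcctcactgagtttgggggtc
Ebf1, chr11:44617850-44618149, plus strand: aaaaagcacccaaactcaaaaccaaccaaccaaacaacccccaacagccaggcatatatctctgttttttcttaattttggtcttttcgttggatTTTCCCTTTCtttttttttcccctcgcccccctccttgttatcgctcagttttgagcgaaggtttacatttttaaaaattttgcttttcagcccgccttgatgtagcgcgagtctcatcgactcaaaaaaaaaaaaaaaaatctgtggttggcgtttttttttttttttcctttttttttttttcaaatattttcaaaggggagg

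The Id3 window held neither set of letters. The Bach2 window held a GAS match at -140 from the start site and the Ebf1 window an ISRE match at -155, with its GAAA letters on the opposite strand. Bcl11a had a GAS match at -224, and the 2 Bcl6 promoters had 1 and 3. The other promoters held neither. A palindrome that EBF1 binds (TCCC, any pair of bases, GGGA) was found in 0.904% of all promoters and among these in that of Foxo1 alone, at -92. The octamer ATGCAAAT (1.74% of all promoters), the forkhead motif TGTTTAC (3.65%) and the ETS motif GAGGAAGT (3.20%) were in none of the 11. These matches are descriptions of the letters in these windows.

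Whether IFNα acted alike in the presence and absence of CpG was tested by the interaction term. Among the 10 genes it was a DEG-sized difference for Id3 alone (lower with CpG; 3.17% of all genes were such in that direction and 3.09% in the other). At any fold change, 2 genes had a lower effect with CpG, Id3 and Bach2 (7.58% of all genes), and 2 a higher one, Ebf1 and Foxo1 (5.84%). For Ebf1 the fall of -0.98 with IFNα became -0.41 with CpG (difference 0.57 ± 0.16, adjusted p = 0.0232), and for Foxo1 -0.70 became 0.01 (difference 0.71 ± 0.19, adjusted p = 0.0135). For Spib the fall was measured in both settings (-0.51 and -0.73), and the difference did not pass (interval -0.61 to 0.17). For Bcl11a it was -0.74 and -0.28 (difference 0.46, adjusted p = 0.166). Among the lists described above, IFNα alone gave 5 down-regulated DEGs (27.8%, against 4.07% of all genes) and none up-regulated of the 18 genes linked to FOXO1, and 3 down- (20%) and 1 up-regulated (6.67%, against 4.56%) of the 15 linked to BACH2 or BCL6.

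**Figure D5:**
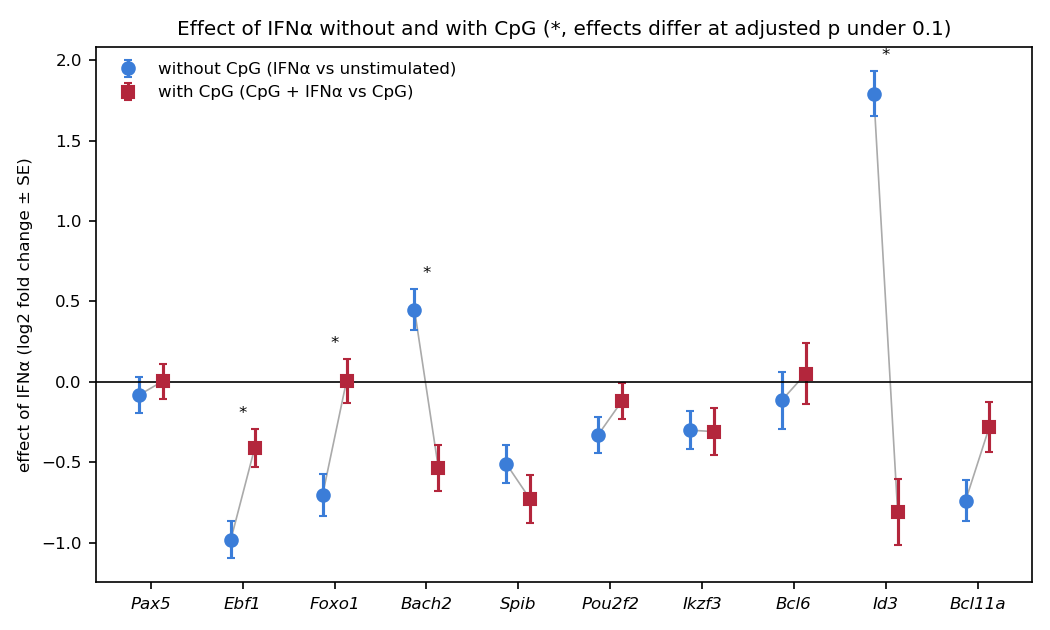
Effect of IFNα (y axis, log2 fold change ± SE) on each of the 10 genes without CpG (blue circles) and with CpG (red squares). Stars mark the 4 genes whose effects differed at an adjusted p under 0.1; Id3 and Bach2 cross from above 0 to below it.

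In CpG + IFNα against CpG, the log2 fold change of Pax5, Foxo1 and Bcl6 was within 0.06 of 0 on the log2 scale, and its sign depended on the normalization or the samples used. When CpG was added to IFNα, 6 of 10 genes were down-regulated DEGs, Ebf1, Bach2, Spib, Ikzf3, Id3 and Bcl11a (25.5% of all genes; 18.7% were up-regulated, none of them among the 10), and 10 of 10 were lower at any fold change (39.8%). The call of Ebf1 there (-1.13) was lost in a test against a fold change of 2 (adjusted p = 0.127). Bcl6 (-0.99) and Foxo1 (-0.84) fell short of 2-fold, and without the second CpG + IFNα sample, the deepest library, they were at -1.17 and -1.04. Bcl6 also became a DEG without the second IFNα sample (-1.18), with counts thinned to a common total (-1.14) and with a stricter filter on low counts (-1.04). The same held with DESeq2 (-1.0066) and with DESeq2's size factors in edgeR (-1.0009). CpG against IFNα as single stimuli likewise gave 6 down-regulated DEGs (24.7% of all genes; 19.4% up-regulated), Bach2, Spib, Ikzf3, Bcl6, Id3 and Bcl11a. The Bcl6 call was lost without the first or the third IFNα sample or the first CpG sample (-0.86 to -0.98), with scaling by library size only (-0.98) and without a filter on low counts (-0.99). The comparisons with IFNα share its samples.

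Other genes of the B cell programme were counted in the same fit. Of 17 genes of the B cell surface and its signalling, 15 were down-regulated DEGs with CpG (88.2%, against 25.5% of all genes) and none up-regulated (median log2 fold change -3.17, against -0.03 for all genes), and 2 were down-regulated in CpG + IFNα against CpG (11.8%, against 2.01% of all genes, median -0.37). Fcer2a, which encodes CD23, went from 1227 ± 196 to 21.3 ± 5.97 CPM with CpG (57.4-fold, adjusted p = 3.89e-23) and to 8.15 ± 1.92 with CpG + IFNα (-1.41 ± 0.29, adjusted p = 0.000668). Cr2, which encodes CD21, fell between CpG and CpG + IFNα from 32.8 ± 11.1 to 14.0 ± 6.22 CPM (-1.28 ± 0.27, adjusted p = 0.000745). Vpreb3 had 168 to 226 counts in unstimulated samples and 1 to 3 with CpG (adjusted p = 6.15e-19). The proteins of Fcer2a and Cr2 were used to sort the cells, before any stimulus.

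Of 33 other regulators of B lineage cells tested, 18 were down-regulated (54.5%, against 25.5% of all genes) and 4 up-regulated (12.1%, against 20.1%) with CpG, with a median of -1.18. Hhex and Lyl1 fell 15.4-fold (adjusted p = 2.15e-19) and 10.7-fold (adjusted p = 9.25e-19), while Batf, an AP-1 family factor, rose 11.6-fold (adjusted p = 4.1e-18) and Myc, a driver of growth, 3.16-fold (adjusted p = 2.94e-12). In CpG + IFNα against CpG, 3 were up-regulated (9.09%, against 2.95% of all genes) and 2 down-regulated (6.06%, against 2.01%), with a median of -0.17. Zbtb32, a zinc finger gene, went from 4.01 ± 1.62 to 58.4 ± 11.3 CPM (3.78 ± 0.29, adjusted p = 1.95e-12) and Tbx21, which encodes T-bet, from 5.57 ± 0.113 to 28.9 ± 6.46 (2.38 ± 0.29, adjusted p = 9.51e-08), while Myb fell from 17.3 ± 4.48 to 6.18 ± 2.51 (adjusted p = 0.00241) and Lyl1 from 15.3 ± 1.45 to 6.99 ± 1.08 (adjusted p = 0.000911). Of the 13 tested of 32 relatives and partners of the 10 genes, 7 were down-regulated (53.8%, against 25.5% of all genes) and 1, Ikzf4, up-regulated (7.69%, against 20.1%) with CpG (median -1.35). Between CpG and CpG + IFNα, 1 of them was up-regulated, Id2, just past the threshold of 2-fold, and 1 down-regulated, Pou2af1, where 2.95% and 2.01% of all genes were (median -0.24). Bcl6b, the relative of Bcl6, had 0 to 3 counts per sample and was not tested.

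Genes with profiles most like each of the 10 were found by the root mean square (RMS) difference between centred log2(CPM + 4) profiles over the 12 samples. The nearest profiles were those of Ddx17 to Pou2f2 (0.0787) and of Zbtb7a to Pax5 (0.0829), where the RMS of the profiles of Pou2f2 and Pax5 themselves was 0.333 and 0.308. Their second neighbours were Borcs8 for Pou2f2 (0.0993) and Rbm33 for Pax5 (0.109). Marcksl1 (0.129) and Cd37 (0.170) were nearest to Bcl11a, Uvrag (0.126) and Iqgap1 (0.131) to Ikzf3, Sh3pxd2a (0.152) and Mtss1 (0.179) to Spib, and Gm11737 (0.128) and Kdm3b (0.137) to Foxo1. Cerkl (0.159) and Hdac10 (0.165) were nearest to Ebf1, Inpp5k (0.165) and Reep5 (0.181) to Bach2, and Nsmaf (0.168) and Erbin (0.171) to Bcl6. Id3 was furthest from its nearest neighbours, Spata13 (0.358) and Tnfaip8l2 (0.358), against an RMS of 1.55 for its own profile. Several of these neighbours gave way to others when the constant added to the CPM was changed. Among the 10 genes, the closest pairs were Pax5 with Pou2f2 (0.188) and Ebf1 with Foxo1 (0.264), and the farthest was Pou2f2 with Id3 (1.35).

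Some of the 10 genes overlap other annotated genes. The highest count of such a gene in any sample was 52 for 5730488B01Rik, on the strand opposite to Pax5, 48 for Gm12158, opposite to Ebf1, and 38 for Gm38034, on the strand of Foxo1. Whether the counting used the strand is not given in the sources used here, so reads of overlapping genes may not have been told apart there.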

How the data were processed

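Deposited UMI counts per gene of 12 samples (4 groups of 3) were used as they are, without normalization by the authors. According to the paper's methods and the submitters' notes, the authors extracted barcodes with UMI-tools 1.1.2, trimmed with Trim Galore 0.6.7, mapped to GRCm38 with HISAT2 2.2.1, assigned reads with featureCounts 2.0.1 and counted unique UMIs, which removes PCR duplicates. The Tlr9 gene was extended by them. The depth of 922450 to 2923865 counts per sample sets the precision, and counts are given in place of a fold change where every sample of a group had at most 4 counts.

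In R 4.3.3, edgeR 4.0.16 computed TMM factors, filtered genes with filterByExpr and fitted all 12 samples with glmQLFit and glmQLFTest (8 residual degrees of freedom), with Benjamini-Hochberg adjustment over 9431 genes. The thresholds for DEGs were 0.1 for the adjusted p and 2 for the fold change. Alternatives were DESeq2 1.42.0, other size factors, filters and fold thresholds, counts thinned to 1 common total, a replicate block, a fit of the groups compared alone, removal of mitochondrial and rRNA genes, and leaving out each sample. The test was tested on simulated data.

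The 10 genes, the gene lists and the tests were chosen with earlier results of these data known. All 10 genes are named. Of each list the text names the 2 DEGs with the largest fold change in each direction in CpG against unstimulated and in CpG + IFNα against CpG, every measured relative or partner, and the 2 nearest profiles of each gene, except for an item that is not reported here. Positions are from GENCODE M21, which holds all 22561 identifiers of the table.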

Additional observations from a re-analysis of the deposited data

Results flagged for a closer look

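For 4 of the 10 genes IFNα had an effect that depended on the presence of CpG, by the test of the difference itself (edgeR, adjusted over 9431 genes). At this adjusted p and any fold change, 5.84% of all genes had a higher effect with CpG and 7.58% a lower one. The effect with CpG minus that without was -2.60 for Id3 (adjusted p = 3.97e-09), -0.98 for Bach2 (adjusted p = 0.00083), 0.71 for Foxo1 (adjusted p = 0.0135) and 0.57 for Ebf1 (adjusted p = 0.0232) on the log2 scale. Id3 and Bach2 were higher with IFNα alone in 3 of 3 samples than in any unstimulated sample, and lower with CpG + IFNα in 3 of 3 samples than in any CpG sample. Ebf1 was lower with IFNα in both settings, and Foxo1 passed the test only without CpG. The groups had 3 samples each, which is too few for a search for single outlying samples.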

How the results depend on the processing

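The counts of DEGs among the 10 genes depended mainly on the fold threshold. With a log2 fold change over 2, the threshold as the study's methods write it, none was up-regulated with IFNα (0 against 1, and 1.71% of all genes), and 2 were down-regulated with CpG (12.1% of all genes), 5 with CpG + IFNα (13%) and 2 in CpG against IFNα (12%). With no fold threshold, 2 rose (12.4% of all genes) and 6 fell (11.9%) with IFNα, and 4 fell in CpG + IFNα against CpG (8.83%). All 10 fell in CpG + IFNα against IFNα (39.8% of all genes) and in CpG against IFNα (38.5%). The interaction was past the threshold for 2 in each direction (5.84% of all genes higher and 7.58% lower). Ebf1 became a down-regulated DEG with IFNα (1 gene) by library size alone, with counts thinned to a common total, and without mitochondrial and rRNA genes, and the thinned counts also added Bach2 to the interaction (2 genes). Leaving out each sample in turn gave 0 to 1 down-regulated genes with IFNα and 1 to 2 in the interaction. A test against a fold change of 2 lost 4 calls, those of Bcl6 with CpG (adjusted p = 0.196), with CpG + IFNα (adjusted p = 0.268) and in CpG against IFNα (adjusted p = 0.439), and that of Ebf1 in CpG + IFNα against IFNα (adjusted p = 0.127). Other counts stayed within 1.5 times under the alternatives run. The cause of these changes was not tested beyond the thresholds themselves.

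Signs turned only for values near 0. The interaction of Ikzf3 (-0.01) was 0.0231 with DESeq2's size factors, 0.0660 by library size, 0.0504 without a filter, 0.0020 with a stricter filter, 0.0113 with DESeq2, 0.0060 with thinned counts, 0.0621 without mitochondrial and rRNA genes, and -0.0825 to 0.0795 with each sample left out. In CpG + IFNα against CpG, Pax5 was at -0.0065 by library size, -0.0112 with thinned counts and -0.0680 to 0.0907 with each sample left out, Foxo1 at -0.0024 by library size and -0.20 to 0.13, and Bcl6 at -0.0553 with thinned counts and -0.14 to 0.15. Leaving out each sample moved Bcl6 with IFNα between -0.27 and 0.0843 and its interaction between -0.0320 and 0.31. With the replicate number of the labels as a block, Foxo1 in CpG + IFNα against CpG was at -0.0128 and no other sign or call changed. The block was not used for the main values because the labels do not say what the numbers stand for and not every pair with the same number had correlated deviations above 0.1. Such correlations were found for 6 of 18 pairs with the same number, all among the stimulated groups and numbers 1 and 2 (0.113 to 0.223), and for 0 of 36 pairs with other numbers, and 10 of 12 samples correlated best with their own number, a hint from the data and not from the design. By library size, the mean level of Foxo1 with IFNα was 185 CPM.

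Bcl6, with 57 to 149 counts per sample, rests on the fewest counts beside Id3, and several of its calls sit at the fold threshold. Bcl6 in CpG against IFNα was no DEG by library size only (-0.98) or without a filter (-0.99), nor was it without a filter in CpG + IFNα against unstimulated cells (-0.99). A transcript level at a single time says nothing of protein.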
